A study of Mus musculus with 4 samples.

Results

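Skeletal excitation-contraction coupling was followed in fetal BAT through 10 genes, taken by symbol from the 22298 genes of the count table. They encode the voltage sensor of the muscle membrane (Cacna1s and Cacng1), the calcium release channel of the sarcoplasmic reticulum (Ryr1), the proteins that hold the triad together or link its parts (Stac3, Jph1, Jph2 and Trdn), the calcium store (Casq1 and Casq2) and the pump that refills it (Atp2a1). All 10 were found, and all but Trdn had enough counts for the test. The tissue was BAT of fetuses at E18.5, labelled C57BL/6 (C57BL/6J in the study's methods) and male, whose dams drank plain tap water (control) or, in the fructose group, water with 20% (w/v) fructose, during pregnancy. Each group has 2 libraries. The number of fetuses or litters behind a library is not given in the sources used here, so p-values measure only the spread between these libraries, which may be technical.

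In skeletal muscle, an action potential runs into the T-tubules, where the voltage-sensing calcium channel touches the ryanodine receptor of the adjoining sarcoplasmic reticulum. The channel opens the receptor, calcium held by calsequestrin leaves the store, the fibre contracts, and the SERCA pump returns the calcium. Brown adipocytes share a developmental precursor with skeletal muscle, and BAT also uses calcium pumps, of which Atp2a2 is the common form outside fast muscle.

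Total counts were 18542897 to 19224529 in control and 22461298 to 23645147 in fructose, and a level is given as CPM, the count relative to the library size after scaling with edgeR's TMM factors (0.973 to 1.04). The brown adipocyte genes Ucp1, Fabp4 and Cidea were abundant in both groups, with 11065 ± 1923, 5948 ± 387 and 3289 ± 75.3 CPM in control (SD, n = 2), and the 12 brown adipocyte markers summed to 24514 and 26356 CPM in control and 24300.3 and 22469 CPM in fructose. Of these 12 markers, 2 rose in the edgeR test given below (Ppargc1a 2.23-fold and Elovl3 1.73-fold). Another 3 fell, namely Cox8b, Adipoq and Cebpa, with folds of 0.739, 0.824 and 0.769. Ucp1, Fabp4 and Cidea did not pass the test. At the same threshold, 15.5% of all tested genes were called higher and 10.7% lower. The libraries labelled fructose had 0 counts on Uty, Kdm5d, Ddx3y and Eif2s3y of the Y chromosome, against 422 and 390 in control, which goes against their male label, so that fetal sex and maternal fructose cannot be told apart here. Mitochondrially encoded genes held 5.89% to 6.49% of the counts in control and 10.8% to 11.2% in fructose. Across the tested genes, the log2 fold change followed the transcript length (Spearman's rho 0.50) and the GC content (rho -0.50), a description across genes, which are not independent. Both trends were removed as alternatives. Their effect is given where it ended a call among the 10 genes or the other excitation-contraction coupling and calcium genes named, but not for markers.

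Most of the 10 genes had higher levels in fructose than in control fetal BAT. In the quasi-likelihood test of edgeR, adjusted over 12888 genes by the method of Benjamini and Hochberg, Atp2a1, Casq1, Ryr1, Casq2 and Cacna1s rose, by 2.25-fold to 3.16-fold. These 5 of 9 tested genes stand beside a background of 15.5% of all tested genes called higher at the same threshold (adjusted p-value under 0.05). The junctophilins did not pass the test, with fold changes of 1.28 (Jph1) and 1.03 (Jph2), and neither did Cacng1 and Stac3, whose fitted folds were 2.16 and 3.40. Of the 9 tested genes, 8 had a higher level in each fructose library than in each control library, as had 33.4% of all tested genes. This was also the case for Trdn. The median log2 fold change of the 9 was 1.27, beside 0.0025 over all tested genes. Stac3 passed the filter on low counts through its fructose libraries alone, so that its place among the genes without overlap is no separate result. Of the other 8 tested genes, all but Jph2 had both fructose libraries above both control libraries. The median log2 fold change of these 8 was 1.22. With Trdn taken against 3 counts in each control library, the median of all 10 was also 1.22. More muscle cells and more RNA per cell cannot be told apart in such bulk libraries.

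**Figure D1:**
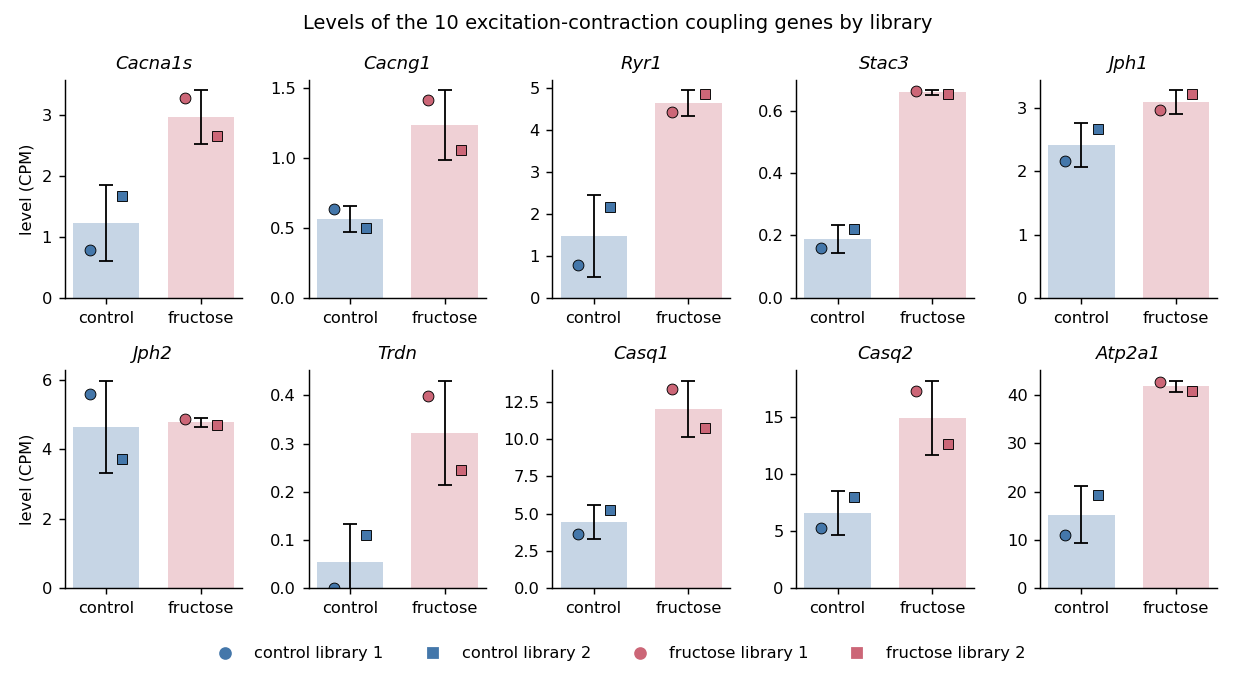
Level of each of the 10 genes (y axis, CPM, from 0, with its own scale in each panel) in control and fructose fetal BAT. Points are libraries, bars the mean and error bars the SD of 2 libraries. The groups overlap for Jph2 alone, and Atp2a1 reaches 42.7 CPM while Trdn stays at or below 0.398 CPM.

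The voltage sensor is the CaV1.1 channel of the T-tubule, with Cacna1s as its pore-forming subunit and Cacng1 as its gamma subunit. Cacna1s (chromosome 1, 136052750 to 136119822) had 15 counts in the first and 30 in the second control library, against 74 and 65 in the first and second fructose library. This corresponds to 0.792 and 1.66 CPM against 3.27 and 2.65 CPM, so that the lower fructose library was still above the higher control library. Its log2 fold change was 1.27 (standard error 0.36, edgeR adjusted p = 0.023). This call did not hold throughout. It was lost without control library 1 (log2 fold change 0.83, edgeR adjusted p = 0.086), without fructose library 1 (1.12, edgeR adjusted p = 0.084), with DESeq2 (1.26, adjusted p = 0.055) and with both trends removed (1.14, edgeR adjusted p = 0.071). Cacng1 (chromosome 11, 107703218 to 107716522) had 12 and 9 counts in control against 32 and 26 in fructose. Its levels of 0.633 and 0.499 CPM in control did not overlap those of 1.41 and 1.06 CPM in fructose, but the difference did not pass the test (log2 fold change 1.11, standard error 0.44, edgeR adjusted p = 0.079).

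Ryr1, the release channel opened by the voltage sensor, lies on chromosome 7 from 29003344 to 29125179. Its counts were 15 and 39 for control against 100 and 119 for fructose. The levels were 0.792, 2.16, 4.42 and 4.86 CPM in the same order, with the control libraries further apart than the fructose libraries. Its log2 fold change was 1.66 (standard error 0.36, edgeR adjusted p = 0.0067). Control library 1 weighed on this value, which was 1.10 without it and 2.54 without control library 2. Ryr1 has the longest transcript of the 10 genes, at 15358 bases against a median of 3433 over the tested genes. With the length trend removed it was no longer called (log2 fold change 0.99, edgeR adjusted p = 0.073), nor with both trends removed (1.26, edgeR adjusted p = 0.053).

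The proteins that join the T-tubule to the store did not move alike. Stac3, an adaptor needed for the channel to reach and open the release channel, is on chromosome 10 from 127501686 to 127508823. It had 3 and 4 counts in control against 15 and 16 in fructose, or 0.158, 0.222, 0.663 and 0.653 CPM. The groups were well apart, yet at these counts the log2 fold change of 1.77 had a standard error of 0.61 and fell just short of the threshold (edgeR adjusted p = 0.05004). Triadin (Trdn, chromosome 10, 33080554 to 33476709), which anchors calsequestrin beside the release channel, had 0 and 2 counts in control against 9 and 6 in fructose. It was not tested. Taken against 3 counts in each control library, its mean fructose level was 1.98-fold higher. This value makes no allowance for counting error in fructose and is not a lower limit.
Junctophilins span the gap between the membranes. Jph1 (chromosome 1, 16964560 to 17097889), the skeletal form, was at 2.16 and 2.66 CPM in control against 2.96 and 3.23 CPM in fructose. The groups did not overlap, but the log2 fold change of 0.36 was close to its standard error of 0.27 (edgeR adjusted p = 0.34). Jph2 (chromosome 2, 163336242 to 163397993), the form shared with heart, was at 5.59 and 3.72 CPM in control against 4.86 and 4.69 CPM in fructose. Both fructose libraries lay between the control libraries (log2 fold change 0.035, standard error 0.24, edgeR adjusted p = 0.93), and the sign of Jph2 turned with the length trend removed (-0.050) or without control library 2 (-0.23).

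The calcium store and the pump gave the firmest differences. Casq1 (chromosome 1, 172209894 to 172219868) is the calsequestrin of fast fibres and binds calcium inside the reticulum. Its levels were 3.64 and 5.27 CPM in control against 13.4 and 10.7 CPM in fructose, with each fructose library above both control libraries. The log2 fold change was 1.43 (standard error 0.20, edgeR adjusted p = 0.00089). Casq2 (chromosome 3, 102086415 to 102146514) is the cardiac calsequestrin, which fetal and slow skeletal muscle also use. From 5.28 and 7.98 CPM in control to 17.2 and 12.6 CPM in fructose, its log2 fold change came to 1.17 (standard error 0.21, edgeR adjusted p = 0.0027). Atp2a1 (chromosome 7, 126445858 to 126463108) encodes SERCA1, the pump of fast skeletal fibres. It had 211 and 350 counts in control against 965 and 1003 in fructose, or 11.1, 19.4, 42.7 and 40.9 CPM. The fructose libraries were close to each other while control library 2 was above control library 1. The log2 fold change was 1.46 (standard error 0.18, edgeR adjusted p = 0.00046). These 3 genes were called under every alternative that was run, including removal of both trends, which called 3.93% of all tested genes higher. Atp2a1 overlaps Rabep2 on the opposite strand, which had 223 and 243 counts in control and 253 and 263 in fructose. Since the treatment of strand in counting is not given in the sources used here, reads of the shared stretch could belong to either gene.

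**Figure D2:**
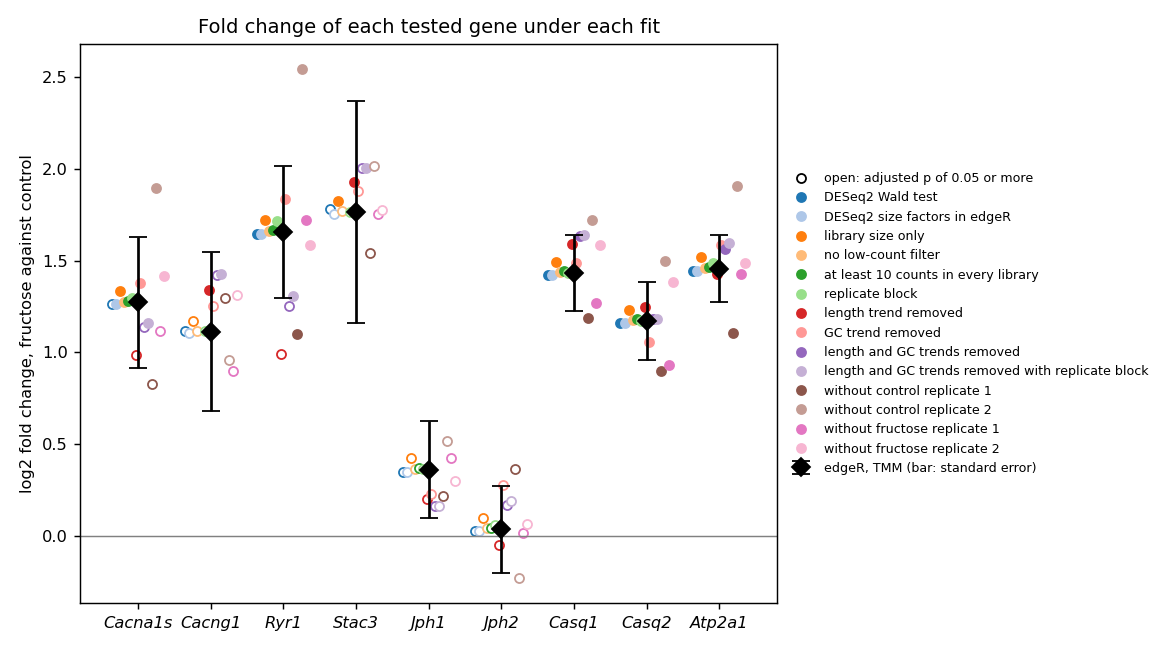
Log2 fold change of the 9 tested genes (y axis, fructose against control). Black diamonds are edgeR with TMM and bars their standard error. Coloured points are the alternative fits, open where the adjusted p-value was 0.05 or more. Casq1, Casq2 and Atp2a1 have only filled points, and Jph1 and Jph2 only open ones.

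Promoter windows of RefSeq (GRCm38.p6, 250 bases before to 50 bases after the annotated start) were at hand for 6 of the 10 genes, Cacna1s, Casq1, Casq2, Jph2, Ryr1 and Atp2a1. The windows of the 3 genes called under every alternative are shown, with that of Jph2, which did not pass the test, for comparison. Each is written 5′ to 3′ on the strand of its gene. Capitals mark E-boxes (CANNTG, searched on both strands), the motif that myogenic regulatory factors recognise, and a match to the MEF2 consensus in Casq2.
Atp2a1 promoter (chr7:126463024-126463323, minus strand): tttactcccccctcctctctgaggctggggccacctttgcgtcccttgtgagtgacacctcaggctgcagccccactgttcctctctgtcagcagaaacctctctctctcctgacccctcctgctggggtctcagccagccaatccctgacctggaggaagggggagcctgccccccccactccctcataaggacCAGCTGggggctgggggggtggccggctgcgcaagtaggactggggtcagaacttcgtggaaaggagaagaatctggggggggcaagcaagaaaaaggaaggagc
Casq1 promoter (chr1:172219846-172220145, minus strand): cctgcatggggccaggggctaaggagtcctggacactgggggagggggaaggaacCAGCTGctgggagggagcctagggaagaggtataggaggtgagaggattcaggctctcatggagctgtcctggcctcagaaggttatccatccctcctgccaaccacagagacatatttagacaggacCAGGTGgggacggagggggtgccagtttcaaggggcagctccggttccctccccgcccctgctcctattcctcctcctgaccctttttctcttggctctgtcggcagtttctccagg
Casq2 promoter (chr3:102086165-102086464, plus strand): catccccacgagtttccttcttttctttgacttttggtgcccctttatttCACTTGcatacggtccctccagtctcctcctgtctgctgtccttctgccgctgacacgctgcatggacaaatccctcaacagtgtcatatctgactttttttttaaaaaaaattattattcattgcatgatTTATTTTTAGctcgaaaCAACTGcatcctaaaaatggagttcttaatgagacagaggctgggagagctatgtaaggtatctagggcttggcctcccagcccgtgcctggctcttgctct
Jph2 promoter (chr2:163397944-163398243, minus strand): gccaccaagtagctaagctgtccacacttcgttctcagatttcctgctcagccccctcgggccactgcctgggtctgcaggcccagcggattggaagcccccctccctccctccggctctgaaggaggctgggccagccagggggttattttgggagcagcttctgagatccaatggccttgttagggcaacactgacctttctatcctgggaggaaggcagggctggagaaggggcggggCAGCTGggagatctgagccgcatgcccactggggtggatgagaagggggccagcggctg
An E-box was found in 5 of the 6 genes with a window, all but Ryr1, and in 72.3% of 32851 windows of all genes, so that its presence does not set these genes apart. With the start site as base 0, the E-box CAGCTG lies from -55 to -50 in Atp2a1, from -195 to -190 in Casq1 and from -9 to -4 in Jph2. Jph2 has a second annotated start, from which this CAGCTG lies from -29 to -24. The same letters stand before a gene that rose and one that did not pass the test. Casq1 holds a further E-box, CAGGTG, from -67 to -62. Casq2 holds E-boxes of other letters, CACTTG and CAACTG, the latter from -52 to -47. The MEF2 consensus was matched in Casq2 alone, from -69 to -60, and in 3.19% of all windows. The CArG box of serum response factor was matched in none of the 6 genes and in 1.63% of all windows. These are matches of letters and do not show that a factor binds there.

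Compared per kilobase of the longest annotated transcript, Atp2a1 had the highest level of the 10 genes in both groups, at 4.39 ± 1.68 CPM per kb in control and 12 ± 0.35 in fructose (SD, n = 2). Casq1 and Casq2 followed and did not differ from each other beyond their spread, at 2.41 ± 0.623 and 2.59 ± 0.749 CPM per kb in control and 6.51 ± 1.02 and 5.84 ± 1.28 in fructose. Next came Jph2 with 1.11 ± 0.315 and 1.13 ± 0.0284 CPM per kb in control and fructose. In control, Jph1 (0.502 ± 0.0732 CPM per kb) and Cacng1 (0.453 ± 0.076) lay within each other's spread. The voltage sensor Cacna1s, Stac3 and Ryr1 stood near the low end, at 0.196, 0.106 and 0.0962 CPM per kb in control, and Trdn lowest, at 0.0123. In control, the SDs of Cacna1s, Stac3 and Ryr1 (0.0986, 0.0251 and 0.0631) do not separate them. In fructose, Cacng1 (0.991 ± 0.2 CPM per kb) reached the level of Jph2 within its spread. Stac3 (0.368 ± 0.00398) and Ryr1 (0.302 ± 0.0201) are not ranked there. Stac3 had only 15 and 16 counts in fructose, and its SD does not cover counting error.

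Counts of Atp2a1, Cacna1s, Casq1, Jph1 and Ryr1 were set beside those of their paralogs in heart or other tissues. The share of counts on the skeletal form does not depend on how a library is scaled. Atp2a1 held 6.72% of the counts of Atp2a1 and Atp2a2 in control library 1 (95% exact binomial confidence interval 5.87% to 7.65%) and 10.2% in control library 2 (9.2% to 11.3%). The share was 19.3% (18.2% to 20.4%) in fructose library 1 and 19.2% (18.2% to 20.3%) in fructose library 2, above both control libraries. These intervals cover counting error only. Atp2a2, the SERCA2 pump of heart and of most other cells, had 163 ± 11.6 CPM in control against 175 ± 4.64 CPM in fructose and did not pass the test (log2 fold change 0.11, edgeR adjusted p = 0.37; -0.14 with the length trend removed).
Of the counts of Cacna1s and the cardiac channel Cacna1c, Cacna1s held 20.8% and 39% in control against 47.7% and 43.3% in fructose. The interval of control library 1 (12.2% to 32%) lay below those of both fructose libraries, while those of control library 2 (28% to 50.8%) and both fructose libraries (39.7% to 55.9% and 35.3% to 51.7%) overlapped. Cacna1c itself did not pass the test (log2 fold change 0.33, edgeR adjusted p = 0.36; -0.27 with the length trend removed). In the same order, Ryr1 held 93.8%, 81.2%, 84% and 92.2% of the ryanodine receptor counts, with no separation of the groups. Jph1 held 27.9% and 41.7% of the junctophilin counts in control against 37.9% and 40.7% in fructose, which overlap. The cardiac receptor Ryr2 had 1, 7, 11 and 6 counts, and Ryr3 had 0, 2, 8 and 4. Casq1 held 40.8% and 39.7% of the calsequestrin counts in control and 43.6% and 45.9% in fructose, within their counting intervals. Reads that match both paralogs could have been split between them by the authors' counting.

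**Figure D3:**
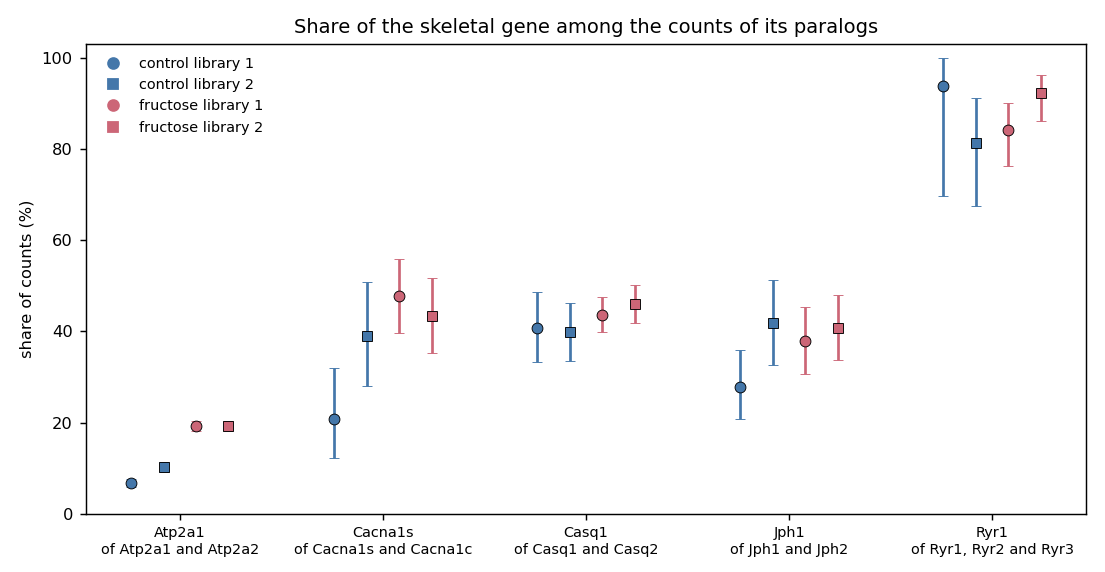
Share of counts on the first named gene of each paralog group (y axis, percent, from 0) in each library, with 95% exact binomial intervals. The fructose libraries stand above both control libraries beyond these intervals for Atp2a1 (19.2% and 19.3% against 6.72% and 10.2%), and those of at least 1 control library overlap the fructose intervals in the other 4.

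Other genes of excitation-contraction coupling and calcium handling were listed apart from the 10, of which 50 were in the table and 40 were tested. Of these 40, 16 rose and 3 fell, with a median log2 fold change of 0.41. These stand beside 15.5% of all tested genes called higher and 10.7% called lower. Pvalb, Scn4a, Chrnd and Chrng were under the filter on low counts in both control libraries, and Cav3 in control library 1, so that they entered the test only through the fructose libraries, where they are high. The count that rose was 10 with at least 10 counts required in every library, 6 with DESeq2 (Sypl2, Cav3, Mtm1, Dysf, Sln and Srl) and 9 with both trends removed, and 6 without fructose library 1 or 9 without fructose library 2. Of the 19 genes of this list that rose or fell, Sypl2, Chrnd, Sln and Orai1 kept their call whichever library was left out. Among triad and T-tubule proteins, 7 of 11 rose. Sypl2, the synaptophysin-like protein mitsugumin 29 of the triad, had the lowest adjusted p-value of the list, with 2.32 and 2.44 CPM in control against 10.7 and 6.04 CPM in fructose (log2 fold change 1.81, standard error 0.28, edgeR adjusted p = 0.0013). Cav3, the caveolin of muscle membranes, rose from 0.681 ± 0.292 to 2.08 ± 0.808 CPM (SD, n = 2; log2 fold change 1.61, edgeR adjusted p = 0.021), and lost its call without fructose library 1 (edgeR adjusted p = 0.17). Mtm1, Tcap and Jsrp1 rose by 1.04, 1.26 and 1.27 on the log2 scale, and Speg and Dysf by 0.53 and 0.42. Of these, Mtm1, Speg and Dysf were not called with both trends removed, and Tcap and Jsrp1 not with DESeq2.
Among membrane excitability genes, 3 of 6 tested rose, each from no more than 5 counts in a control library. All 3 entered the test only through their fructose libraries, where they are high, so this count is not read as a result. The skeletal sodium channel Scn4a was counted 4 times in either control library, against 32 and 17 times in fructose (log2 fold change 2.24, standard error 0.60, edgeR adjusted p = 0.018). The acetylcholine receptor subunits Chrnd and Chrng, the latter the fetal form, rose by 2.26 and 2.32 (edgeR adjusted p = 0.011 and 0.022). DESeq2 did not call any of Scn4a, Chrnd and Chrng (adjusted p = 0.063, 0.055 and 0.13), Scn4a was not called with both trends removed (edgeR adjusted p = 0.054), and Chrne, the adult subunit, had 0 counts in every library.
Around the pump, sarcolipin (Sln), a small protein that inhibits SERCA, was at 2.80 and 4.33 CPM in control against 9.86 and 7.31 CPM in fructose. Its log2 fold change, 1.27 (standard error 0.24, with an edgeR adjusted p = 0.0036), was close to that of Atp2a1, and it was called under every alternative run. The buffer parvalbumin (Pvalb) rose by 1.59 (edgeR adjusted p = 0.039) and sarcalumenin (Srl) by 0.45 (edgeR adjusted p = 0.017). Pvalb lost its call with DESeq2 (adjusted p = 0.16) and on removal of the GC trend (edgeR adjusted p = 0.054). Srl lost its call with both trends removed (edgeR adjusted p = 0.090). Myoregulin (Mrln) had 1, 0, 5 and 4 counts, too few for the test, and phospholamban (Pln), the SERCA inhibitor of heart, had 0 counts in every library, which allows up to 0.158, 0.166, 0.133 and 0.122 CPM at these depths.
In the store and release group, Hrc (histidine-rich calcium binding protein) rose by 1.06 and Asph (the junctin locus) by 0.42 (edgeR adjusted p = 0.019 and 0.028), while Fkbp1a, a binding partner of ryanodine receptors, and S100a1, a calcium sensor, fell by 0.29 and 0.40 (edgeR adjusted p = 0.034 and 0.0067). Hrc lost its call with DESeq2 (adjusted p = 0.065) and without fructose library 2 (edgeR adjusted p = 0.19). With both trends removed, Asph (0.0094), Fkbp1a (-0.061) and S100a1 (-0.030) were no longer called. Store-operated entry held Trpc1, which rose by 1.57 (edgeR adjusted p = 0.023), and Orai1, which fell by 0.54 (edgeR adjusted p = 0.0098), and neither was called with both trends removed. None of the 3 tested cardiac genes (Cacna1c, Atp2a2 and Slc8a1) was called by edgeR or by DESeq2, and 0 of them had an unadjusted edgeR p-value under 0.05. All 3 nonetheless had both fructose libraries above both control libraries, as had 33.4% of all tested genes.

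**Figure D4:**
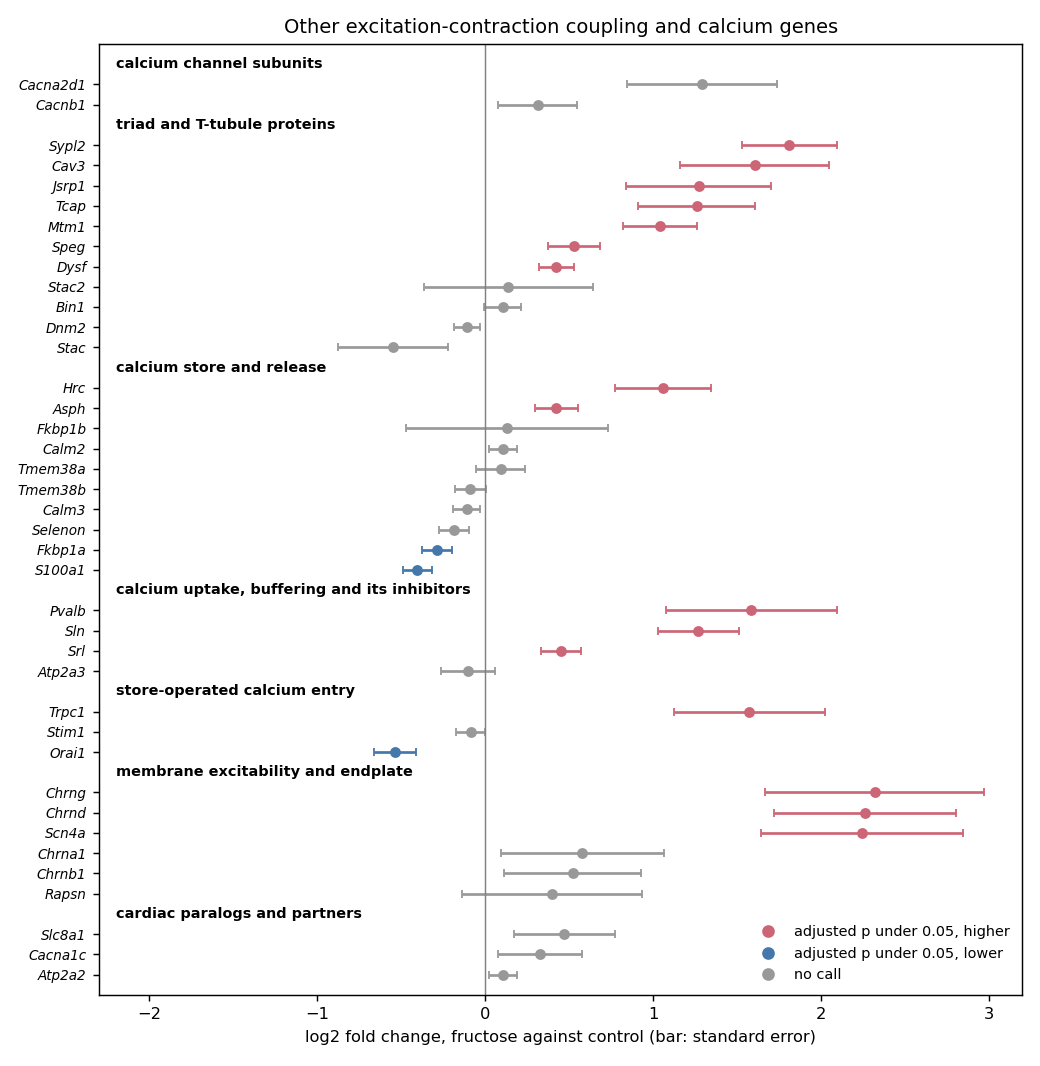
Log2 fold change with standard error (x axis, fructose against control) of tested genes of the wider list, grouped by role. Red marks the 16 genes that rose, blue the 3 that fell and grey genes that did not pass the test.

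Markers of skeletal myofibres, none of them among the 10 genes, moved with the groups. Of 27 markers, 24 were tested and 23 rose, beside 15.5% of all tested genes called higher. The median log2 fold change was 1.40. Among the 23, Myh2 had 3 counts in each control library against 64 and 38 in fructose. It entered the test only through its fructose libraries, so its call is not read as a result. The summed level of the 27 markers was 399 and 503 CPM in control and 1077 and 839 CPM in fructose. The highest of them by level, Acta1 (skeletal actin), Mylpf (fast myosin light chain) and Mb (myoglobin), rose by 1.15, 0.98 and 0.73 on the log2 scale (edgeR adjusted p = 0.0013, 0.00066 and 0.00081). The satellite cell and myoblast markers summed to 1.06 and 1.72 CPM in control and 3.76 and 4.82 CPM in fructose. Of these 7 markers, 2 were tested and Myog was called higher, with 8 and 12 counts in control against 41 and 69 in fructose. Both tested markers were under the filter on low counts in control library 1. They entered the test only through the fructose libraries, where they are high, so this call is not read as a result. The part of muscle cell content in the results above was not tested. Within control, 8 of the 10 genes were higher in library 2 than in library 1, as were the summed myofibre markers. Of the 11 cardiomyocyte markers, 8 had no more than 3 counts in any library, among them Nppa, Tnni3 and Myl7, and Nppb had 0 counts in all. The only tested ones, Tbx5 and Hcn4, did not pass the test. The smooth muscle markers summed to 179 and 197 CPM in control and 185 and 156 CPM in fructose, and Synpo2 was the 1 of 8 that rose. The Schwann cell and nerve markers summed to 29.1 and 27.4 CPM in control and 33.8 and 28.8 CPM in fructose.
Expressed per 1000 CPM of the summed myofibre markers, the 10 genes fell into different patterns. Atp2a1 was at 27.9 and 38.6 in control against 39.6 and 48.8 in fructose, and Casq1 at 9.14 and 10.5 against 12.4 and 12.7. Stac3 (0.397 and 0.441 against 0.616 and 0.779) and Trdn (0 and 0.220 against 0.369 and 0.292) were also higher in both fructose libraries, on no more than 16 and 9 counts in any library. Stac3 passed the filter on low counts through its fructose libraries alone, and Trdn was not tested. Of the 10 genes, Atp2a1 and Casq1 were thus the only ones that passed it in control and were higher by this ratio. Over all tested genes the share was 1.35%. That share is no neutral background, since the marker sum was itself higher in fructose and a gene must rise more to count. The ratio overlapped between groups for Ryr1, Cacna1s, Cacng1 and Casq2. Casq2, for example, was at 13.2 and 15.9 in control and 16 and 15 in fructose. Both junctophilins were lower relative to the myofibre markers, as were 83.9% of all tested genes. Jph1 was at 5.43 and 5.29 in control against 2.75 and 3.84 in fructose, and Jph2 at 14 and 7.38 against 4.51 and 5.6. These ratios are a description without a test, and Acta1 alone made up 23.8% to 28.3% of the marker sum. The sum also holds Mb and Des, whose log2 fold changes of 0.73 and 0.27 lay below the marker median of 1.40. Atp2a1 and Casq1, at 1.46 and 1.43, were close to that median. The ratios therefore depend on which markers are summed, and ratios without Mb and Des were not computed.

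**Figure D5:**
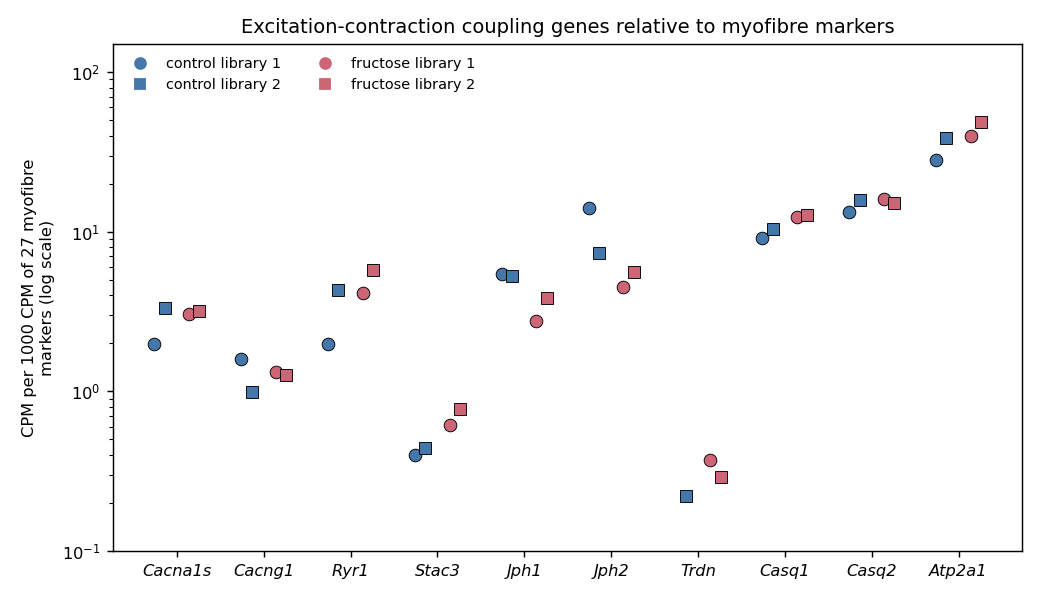
Level of each gene per 1000 CPM of 27 summed myofibre markers (y axis, log scale) in each library. The 0 of Trdn in control library 1 cannot be drawn. Fructose points lie above both control points for Atp2a1, Casq1, Stac3 and Trdn, below them for Jph1 and Jph2, and overlap them for the other 4.

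The mean profile of the 9 tested genes, centred on each gene's mean log2 CPM, was -0.77 and -0.33 in control against 0.63 and 0.48 in fructose. The genes outside the list whose profile lay nearest to it over these 4 libraries were Pdik1l (Euclidean distance 0.0785), Eef1a2 (0.0837), Neto2 (0.0923), Zfp617 (0.105) and Akr1c14 (0.118). Eef1a2, the translation elongation factor of muscle and neurons, had 22 and 29 counts in control against 78 and 71 in fructose. Pdik1l had 22 and 27 counts against 71 and 67. With 4 libraries in 2 groups, such likeness says little more than that these genes differed between the groups by a like amount.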

How the data were processed

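Fetal BAT RNA was sequenced in 4 libraries, 2 per group. Per the labels and the study's methods, the authors filtered reads with Fastp, mapped them to mm10 with Bowtie2 2.0.0.5 and Tophat 2.0.0, assembled transcripts with StringTie 2.2.0 and merged them with Cuffmerge. Raw counts per gene were deposited, and the 4 tables of separate libraries held the same values as the table of all libraries. Counting tool, strand setting and annotation release are not given in the sources used here. Symbols, coordinates, lengths and GC content came from GENCODE M21 (GRCm38), with 43 of 22298 identifiers unmatched. Of 136 listed symbols, 135 were found (Strit1 was not).

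Genes kept by filterByExpr were tested with edgeR 4.0.16 (R 4.3.3; TMM, quasi-likelihood test, two-sided, no covariate, Benjamini-Hochberg adjustment, threshold 0.05). Replicates differed by more than sampling noise (chi-square per degree of freedom 13.1 in control and 8.45 in fructose). Alternatives were DESeq2 1.42.0, other scalings and filters, the replicate block, removal of length and GC trends (lowess, span 0.3) and each library left out. The tests were checked on simulated counts. The genes named are the 10 members and called genes of the wider list with the cardiac paralogs and SERCA inhibitors. Also named are the highest markers of a list and the 5 nearest profiles. Chrne, Slc8a1, Ryr3, Synpo2, Myog, Myh2, Des and the cardiomyocyte markers were named after their values were seen. The same holds for the brown adipocyte markers Ppargc1a, Elovl3, Cox8b, Adipoq and Cebpa. A gene of the wider list is counted but not reported here. Members and lists were chosen with earlier results of these data known.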

Additional observations from a re-analysis of the deposited data

How the results depend on the processing

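With both the length and GC trends removed, 3 of the 10 genes were called higher rather than 5, and with these trends removed and the replicate block 7 were. Among the other genes of the pathway, 16 rose and 3 fell in the test as reported; the number that rose was 6 with DESeq2, 10 with at least 10 counts in every library and 9 with both trends removed, and the number that fell was 0 with the length trend removed, 0 with both trends removed and 1 with both trends removed and the replicate block. Over all genes, 2001 rose, against 1159 with the length trend, 1112 with the GC trend and 506 with both trends removed, and 778 with both removed and the replicate block; 1379 fell, against 859 with scaling by library size only, 554 after removal of both trends and 710 with the block added. Leaving out each library in turn gave 4 to 5 of the 10 genes higher, a median log2 fold change of 1.10 to 1.72, 6 to 15 pathway genes higher and 1 to 4 lower, and 1266 to 2254 genes higher and 527 to 1685 lower over all genes. In these fits a lone library is assumed to vary like the pair of the other group. The sign turned for Jph2 (-0.050 with the length trend removed, and -0.23 to 0.36 when libraries were left out, the lowest without control replicate 2), for Cacna1c (-0.27 with the length trend removed, -0.15 with both, -0.14 with both and the block) and for Atp2a2 (-0.14, -0.12 and -0.12 likewise), none of which was called in any of these fits. Stac3 was called when scaled by library size only (edgeR adjusted p = 0.046), with the length trend removed (0.047) and with both trends removed and the block (0.048), and Cacng1 with the length trend removed (0.04996) and with both removed and the block (0.042). Other causes of these shifts were not tested.

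The labels do not say whether the replicate numbers mark shared litters or days. The deviations of same-numbered libraries had a correlation of -0.027 across genes, which cannot settle this. With the replicate block, 5 of the 10 genes were called higher, with a median log2 fold change of 1.29, 17 pathway genes rose and 3 fell, and 2117 genes rose and 1441 fell over all genes. Depth limits Trdn, Stac3 and Cacng1 most, with 9, 16 and 32 counts at most in any library.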
